A study of Mus musculus with 9 samples.

Results

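The results below concern 10 genes that mark endothelial cells, the lining of blood vessels, in the right ventricle of mice with and without pulmonary artery banding. The genes are Pecam1, Cdh5, Esam, Plvap, Emcn, Tie1, Eng, Egfl7, Vwf and Gpihbp1. Every probe set whose annotated symbol was exactly one of these names was taken, which gave 15 probe sets of the 45101 in the table, and 10 genes of the 18193 tested.

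The samples were right ventricular myocardium from male C57BL6J mice aged 6 to 8 weeks, with 5 arrays of ventricles after pulmonary banding and 4 of ventricles after sham surgery. The submitters' description of the design states 5 mice without making clear whether this is the size of each group, and 4 sham arrays were analysed here. Banding narrows the pulmonary artery, so that the right ventricle works against a raised pressure, and sham mice have surgery without the narrowing. No mouse in either group is labelled as carrying a transgene or a drug treatment. How long after surgery the ventricles were taken, how narrow the band was and whether arrays ran in batches was not stated in the sources used here. Replicates are numbered, but nothing says that each is a separate animal, so the p-values measure only the spread between these samples, which may be technical.

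Heart muscle is crossed by a dense capillary bed, and its endothelial cells seal the vessel wall, pass fatty acids to the muscle and keep blood fluid. They are recognised by a shared set of transcripts for cell-to-cell junctions, cell surface glycoproteins, receptor tyrosine kinases and secreted factors. No single one of these is made by every endothelial cell to the same degree. Plvap, for example, belongs to vessels with fenestrae or diaphragm-covered caveolae, whereas Gpihbp1 belongs to capillaries. Right ventricular tissue holds many cell types, so a change of these transcripts in bulk RNA cannot tell apart more endothelial cells from more RNA per endothelial cell.

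In banded ventricles 6 of the 10 genes rose, none fell and 4 did not pass the test. Plvap rose most, followed by Cdh5, Esam, Pecam1, Emcn and Egfl7. Tie1 and Eng had higher means but did not pass, and Vwf and Gpihbp1 had slightly lower means and did not pass. The test was limma with Benjamini-Hochberg adjustment over all 18193 genes at an adjusted p of 0.05, which called 38.4% of all genes, 18.4% higher and 20.0% lower. At an unadjusted limma p under 0.05, 8 of the 10 were higher and 0 lower. The share of all genes at that unadjusted level was not counted and cannot be smaller than the share after adjustment. Unadjusted counts, here and for the lists below, therefore have no background beside them. Among the 10748 genes whose mean lay above the dim level, defined as 2 log2 units above the lowest value in the table, 29.9% were called higher and 32.2% lower, and all 10 endothelial genes belong there. The same shares are the background for the adjusted counts of every list below. The median difference of the 10 was 0.59 on the log2 scale, against 0 over all genes and -0.013 over the genes above the dim level. On 5 of the 10 genes every banding array lay above every sham array, while 17.4% of all genes were separated that way and 19.3% the other way.

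Values on these arrays are log2 expression per probe set, so a difference of 1 is a doubling between groups. They ran from 2.198, a floor shared by all arrays, to 16.43, and the medians of the arrays were 3.23 to 3.31. The endothelial genes lay between 7.14 and 11.30, well above the floor. The share of values at the floor was higher in the banding group (31.3% ± 0.332, SD, n = 5) than in the sham group (29.8% ± 0.549, SD, n = 4), with an adjusted p of 0.0159 in an exact two-sided permutation test over the 4 technical measures. The difference between the 3′ and 5′ control probes of Actb, a sign of RNA integrity, was 0.86 in banding and 1.06 in sham, also with an exact permutation adjusted p of 0.0159. For Gapdh it was -0.15 and -0.10, with an exact permutation adjusted p of 0.262. The part of these measures in the results was not tested.

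Sham arrays also carried transcripts of hepatocytes, the main cells of the liver. All 18 hepatocyte markers were lower in banding by limma, with a median difference of -7.05, and their mean level was 8.51 to 12.57 on the sham arrays and 2.82 to 4.67 on the banding arrays. Sham replicate 4 was highest in its group and banding replicate 5 highest in its own. Without these 2 arrays, the same 6 endothelial genes and Tie1 passed in the banding direction. On the arrays left, the hepatocyte level still did not overlap, at 8.51 to 9.93 in sham and 2.82 to 3.09 in banding. This omission therefore cannot tell liver transcripts and banding apart. With the hepatocyte level as a covariate in limma none of the 10 passed, and the difference of Plvap was 1.19 ± 0.45 (SE, limma adjusted p 0.150). The level does not overlap between groups, so in that fit it and banding cannot be told apart. Of 8 genes listed as marks of liver sinusoidal endothelium, 2 were higher, 1 was lower, namely Lyve1, and the other 5 missed the threshold. Among those 5, Stab2, Clec4g, Oit3 and Dnase1l3 had group means under the dim level of 4.198 in both groups. Clec4g reached 5.32 on sham replicate 4. The part of liver transcripts in the endothelial values was not tested.

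**Figure D1:**
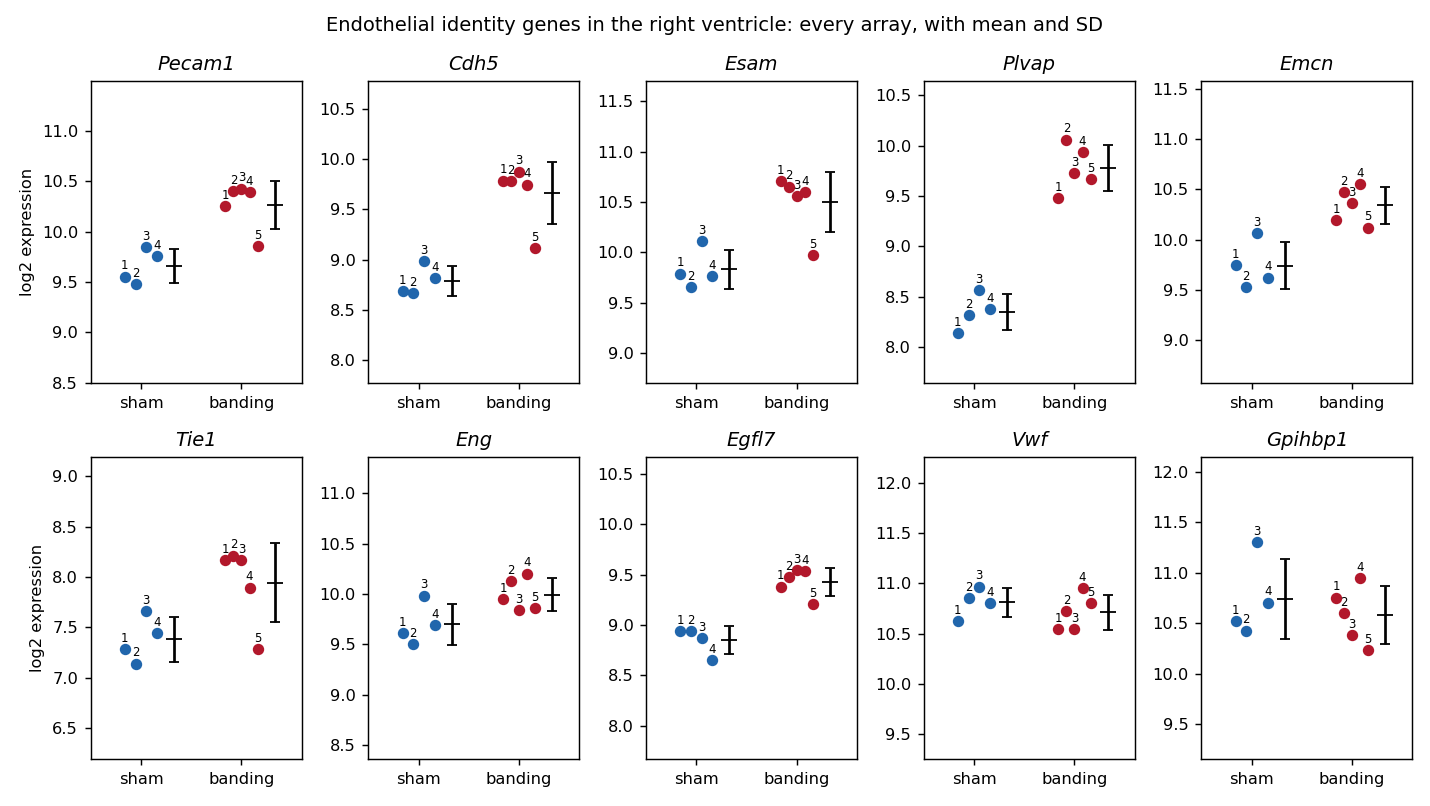
Log2 expression of the 10 endothelial genes on every array, with 1 panel per gene. Blue points are the 4 sham and red points the 5 banding arrays, numbered by replicate, beside the group mean and SD; each vertical axis spans 3 log2 units around the mean of that gene. Plvap shows the widest gap between groups (8.35 to 9.78), and the groups overlap for Vwf and Gpihbp1.

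The upstream sequence of the genes is shown because endothelial genes are often bound by ETS factors, whose core site is GGAA, and some of these factors rose as well. The RefSeq promoter table (GRCm38.p6) held 4 of the 10 genes, Emcn, Egfl7, Tie1 and Eng, with 3 start sites for Egfl7 and 1 for each of the others. The 250 bases before 1 start of each gene follow, 5′ to 3′ in the direction of transcription, with every GGAA core on either strand in capitals, so that TTCC marks a core on the other strand.
Emcn, chr3:137340828-137341077, plus strand: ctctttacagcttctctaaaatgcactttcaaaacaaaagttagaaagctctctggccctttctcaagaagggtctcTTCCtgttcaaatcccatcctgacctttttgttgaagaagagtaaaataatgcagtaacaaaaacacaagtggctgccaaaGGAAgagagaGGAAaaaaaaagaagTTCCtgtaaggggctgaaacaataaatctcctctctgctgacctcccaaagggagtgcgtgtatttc
Egfl7, the first of its starts, chr2:26580833-26581082, plus strand: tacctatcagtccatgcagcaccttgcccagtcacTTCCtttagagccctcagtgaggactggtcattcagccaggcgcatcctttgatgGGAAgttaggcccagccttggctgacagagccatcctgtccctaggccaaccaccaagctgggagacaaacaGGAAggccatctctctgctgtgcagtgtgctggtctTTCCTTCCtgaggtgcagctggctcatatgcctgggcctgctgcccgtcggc
Tie1, chr4:118489850-118490099, minus strand: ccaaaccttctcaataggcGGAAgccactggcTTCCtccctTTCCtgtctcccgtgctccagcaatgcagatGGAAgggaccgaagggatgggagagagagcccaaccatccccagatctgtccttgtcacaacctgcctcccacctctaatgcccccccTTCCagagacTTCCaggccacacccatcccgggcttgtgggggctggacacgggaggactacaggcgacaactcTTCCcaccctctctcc
Eng, chr2:32646345-32646594, plus strand: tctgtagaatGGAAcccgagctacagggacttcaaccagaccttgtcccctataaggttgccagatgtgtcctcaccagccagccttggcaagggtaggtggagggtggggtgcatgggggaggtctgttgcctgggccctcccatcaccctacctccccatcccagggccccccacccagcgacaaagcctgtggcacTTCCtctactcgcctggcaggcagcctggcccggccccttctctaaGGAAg

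The GGAA core stood 4 times in the Emcn window, 5 times in that of Egfl7, 7 times in that of Tie1 and 3 times in that of Eng. Such cores are common: 93.4% of the 32851 mouse promoter windows of the same length held at least 1, with a median of 3, and the 6 windows of these genes had a median of 3.5. The longer ACAGGAA, taken from the combined forkhead and ETS motif of endothelial enhancers, contains both CAGGAA and GGAA. On either strand it was found in the windows of Emcn, with 2 matches, and Tie1, with 1, and in 2 of the 3 windows of Egfl7. The window of Eng did not hold it, and 7.2% of all windows did. CAGGAA was in 25.7% of all windows and CCGGAA in 12.0%, with CCGGAA in 0 of the 6 windows. The SOX core ACAAT was in 1 of the 6 windows (27.7% of all), the GATA core GATAA in 1 (22.6%), the CACCC box, spelled as named, in 3 (52.0%) and TATAAA in 0 (12.4%). These are letter matches in a short window and say nothing of binding. Emcn and Egfl7 rose while Tie1 and Eng did not pass, and all of them hold the core, as do 93.4% of all windows. The part of these sites in the changes was not tested.

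The junction genes were Cdh5, Pecam1 and Esam, and all 3 rose. Cdh5 on chromosome 8 (GRCm38.p6, 104101613 to 104144504) encodes VE-cadherin, the adhesion protein of the endothelial adherens junction. Its brighter probe set 1433956_at read 9.78, 9.78, 9.88, 9.74 and 9.12 on banding replicates 1 to 5 and 8.69, 8.67, 8.99 and 8.82 on sham replicates 1 to 4. Every banding array was above every sham array, but replicate 5 cleared sham replicate 3 by only 0.13. The rise was 0.87 ± 0.16 (SE, n = 5 and 4), 1.83-fold with a 95% interval of 1.40 to 2.39, at a limma adjusted p of 0.0039. The other probe set, 1422047_at, was near the dim level, with means of 4.28 and 3.98, and its difference of 0.29 ± 0.14 had a limma adjusted p of 0.173.

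Pecam1 on chromosome 11 (106654213 to 106715281) encodes CD31, an adhesion receptor that holds neighbouring endothelial cells together and is also found on platelets and leukocytes. It read 10.25, 10.40, 10.43, 10.39 and 9.85 on the banding arrays and 9.55, 9.48, 9.84 and 9.76 on the sham arrays. The lowest banding array, replicate 5, only just cleared the highest sham array, replicate 3. The rise was 0.61 ± 0.14 (SE), 1.52-fold with a 95% interval of 1.22 to 1.91, at a limma adjusted p of 0.00999.

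Esam on chromosome 9 (37528089 to 37538319) encodes an adhesion molecule of endothelial tight junctions and platelets. It read 10.70, 10.65, 10.56, 10.60 and 9.97 on the banding arrays and 9.79, 9.66, 10.11 and 9.76 on the sham arrays. The groups overlapped at 1 point, since banding replicate 5 lay below sham replicate 3. The rise was 0.67 ± 0.17 (SE), 1.59-fold with a 95% interval of 1.21 to 2.09, at a limma adjusted p of 0.0158. Leaving out each array in turn gave adjusted p-values of 0.00127 to 0.0488 for Esam, all still passing.

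Platelets and leukocytes share some of these transcripts. Of 7 measured platelet markers none passed the limma test in either direction, and 1 was lower at an unadjusted p under 0.05; 5, among them Itga2b, were dim in both groups. Their mean level was 3.93 to 4.53 in banding and 4.2 to 5.28 in sham. All 7 measured lymphocyte markers were dim in both groups. Of 12 macrophage markers 10 were higher and 1 lower, with a mean level of 10.07 to 10.55 in banding and 9.20 to 9.51 in sham. Their part in the Pecam1 value was not tested.

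Other genes of endothelial junctions, both adhesion molecules and their partners inside the cell, were mixed. Of 11 measured 3 rose, 1 fell and 7 missed the threshold, with a median difference of 0. The count of rises is near the 29.9% called higher among all genes above the dim level. Ctnnb1, which encodes the beta-catenin that binds the tail of VE-cadherin, rose by 0.32 ± 0.04 (limma adjusted p 0.000323). F11r, the tight junction molecule JAM-A, rose by 0.55 ± 0.08, and Tjp1, the scaffold ZO-1, rose by 0.27 ± 0.06. As the mean of all probe sets the rises were 0.33 for Ctnnb1, 0.27 for F11r and 0.27 for Tjp1. All 3 are also made by other cell types.

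Plvap and Emcn encode glycoproteins of the endothelial surface, and both rose. Plvap on chromosome 8 (71497753 to 71511806) encodes the protein of the diaphragms that span fenestrae and caveolae. It read 9.48, 10.06, 9.73, 9.94 and 9.67 on the banding arrays and 8.14, 8.32, 8.57 and 8.38 on the sham arrays. The lowest banding array stood 0.91 above the highest sham array, and banding replicate 5 lay within its group. The rise was 1.43 ± 0.14 (SE), 2.69-fold with a 95% interval of 2.16 to 3.35, at a limma adjusted p of 0.000178. It was 1.35 to 1.5 when any 1 array was left out.

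Emcn on chromosome 3 (137341062 to 137431069) encodes endomucin, a sialomucin of capillary and venous endothelium. It read 10.20, 10.47, 10.37, 10.55 and 10.12 on the banding arrays and 9.75, 9.53, 10.07 and 9.62 on the sham arrays. Banding replicate 5 was again lowest in its group and sham replicate 3 highest in its own, and they did not overlap. The rise was 0.60 ± 0.13 (SE), 1.51-fold with a 95% interval of 1.22 to 1.88, at a limma adjusted p of 0.00893.

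Caveolae, the membrane pits whose necks Plvap can span, were measured through 7 genes of their coat. Of these 3 were higher, none lower and 4 did not pass, with a median difference of 0.43. Among those that did not pass, Cavin2 was lower on every banding array than on every sham array. Its difference was -0.61 ± 0.23 (limma adjusted p 0.0712), or -0.37 as the mean of its probe sets (0.224). Cavin3 rose by 2.08 ± 0.13 (limma adjusted p 3.7e-05) and Ehd2, an ATPase at the neck of the pit, by 0.67 ± 0.12. Cav1, the main coat protein in endothelium, had a difference of 0.43 ± 0.18 and did not pass (limma adjusted p 0.110), but passed without banding replicate 5 (0.56, limma adjusted p 0.0135).

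The receptors Tie1 and Eng did not pass. Tie1 on chromosome 4 (118471191 to 118489849) encodes an orphan receptor tyrosine kinase that acts with the angiopoietin receptor Tek. It read 8.17, 8.21, 8.17, 7.89 and 7.28 on the banding arrays and 7.28, 7.14, 7.66 and 7.44 on the sham arrays. The first 4 banding arrays were above every sham array, while replicate 5 lay among the sham values. The difference was 0.56 ± 0.21 (SE), 1.48-fold with a 95% interval of 1.04 to 2.09, and the limma adjusted p was 0.0778. Without banding replicate 5 it was 0.73 at a limma adjusted p of 0.0049, which passes, and testing only genes above the dim level gave 0.0292.

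Eng on chromosome 2 (32646595 to 32682669) encodes endoglin, a co-receptor for BMP and TGF-beta ligands. Its brighter probe set 1417271_a_at read 9.95, 10.12, 9.84, 10.20 and 9.86 on the banding arrays and 9.61, 9.50, 9.99 and 9.69 on the sham arrays. Only 2 banding arrays exceeded sham replicate 3, although all 5 exceeded the other sham arrays. The difference was 0.30 ± 0.12 (SE), 1.23-fold with a 95% interval of 1.01 to 1.49, at a limma adjusted p of 0.0925. Without sham replicate 3 it passed, at 0.39 and a limma adjusted p of 0.0234, and it also passed among genes above the dim level (0.0468). The dimmer probe set 1432176_a_at differed by 0.18 ± 0.19 (limma adjusted p 0.583), with banding replicate 4 at 9.56 and all the other arrays between 8.56 and 8.85.

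Around endoglin, 8 of 13 genes of its receptor pathway rose, none fell and 5 missed the threshold, with a median difference of 0.73. Tgfbr1 rose by 1.56 ± 0.12 and Tgfbr2 by 1.06 ± 0.09, the receptors for TGF-beta found on many cell types. Acvrl1, the endothelial receptor ALK1 that pairs with endoglin, rose by 0.73 ± 0.11 (limma adjusted p 0.00117). Id3, a target of BMP signalling, rose by 1.72 ± 0.15, and Smad7, an inhibitor of the pathway, rose by 0.92 ± 0.08. The receptor Tek, partner of Tie1, differed by 0.14 ± 0.11 and did not pass (limma adjusted p 0.409).

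The secreted factors were Egfl7, which rose, and Vwf, which did not pass. Egfl7 on chromosome 2 (26581083 to 26592682) encodes a matrix-bound factor made by endothelium and is the host gene of the microRNA miR-126. Its brightest probe set 1451428_x_at read 9.38, 9.47, 9.55, 9.53 and 9.20 on the banding arrays and 8.94, 8.94, 8.87 and 8.65 on the sham arrays. All banding arrays lay above all sham arrays, and here sham replicate 3 was not the highest of its group. The rise was 0.58 ± 0.09 (SE), 1.49-fold with a 95% interval of 1.29 to 1.73, at a limma adjusted p of 0.00163.

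The 4 probe sets of Egfl7 did not give 1 size. 1451427_a_at rose by 0.55 ± 0.14 (limma adjusted p 0.0175 over the 34945 probe sets) and 1435823_x_at by 0.32 ± 0.09 (0.0327), whereas 1421335_a_at differed by 0.04 ± 0.14 and did not pass, with a 95% interval of -0.30 to 0.37. Its difference fell short of that of the brightest probe set by 0.54, with an exact two-sided permutation p of 0.0212 adjusted over 8 probe-set pairs. The identifiers ending in _x_at and _a_at mark probe sets that can match other transcripts or several transcripts of a gene, and the labels and files used here do not say which part of Egfl7 each one reads. Of the 6 pairs of Egfl7 probe sets, 4 changed unequally. The Eng pair did not pass (exact permutation adjusted p 0.526), and nothing is read from the Cdh5 pair, since its other probe set was under the dim level in sham.

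Over all 15 probe sets, 8 were higher, 0 lower and 7 did not pass in the probe-set fit, where 15.3% of 34945 probe sets were called higher and 16.1% lower. The 8 belonged to the same 6 genes.

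**Figure D2:**
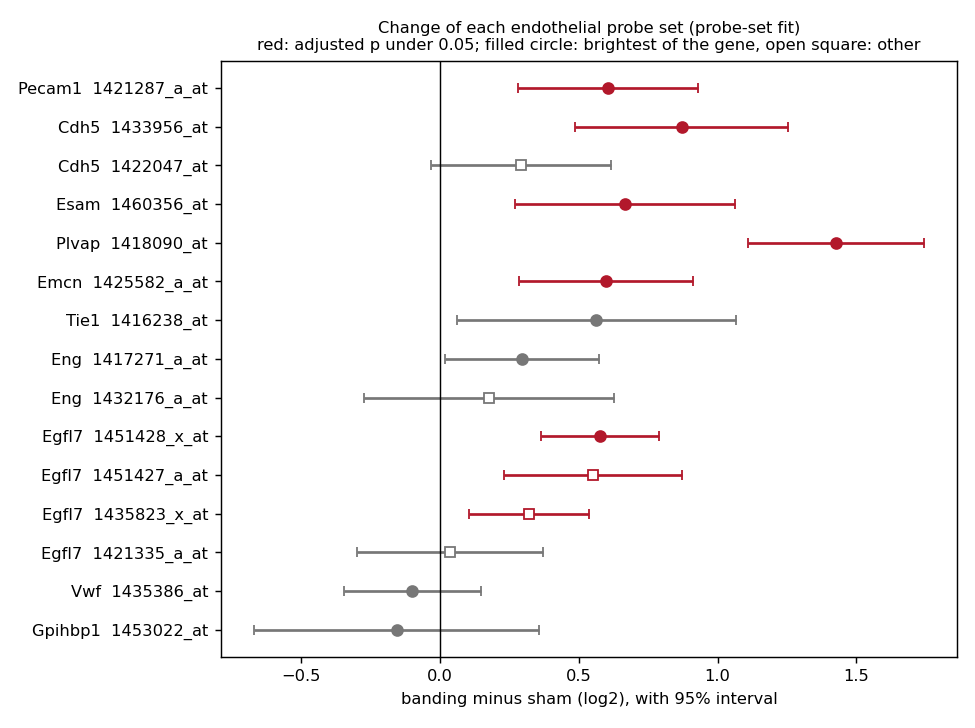
Difference between banding and sham on the log2 scale for each of the 15 probe sets, with its 95% interval, from the fit over all single-gene probe sets. Red marks an adjusted p under 0.05, filled circles the brightest probe set of a gene and open squares the others; the Egfl7 probe sets run from 0.04 to 0.58.

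Vwf on chromosome 6 (125552948 to 125686679) encodes von Willebrand factor, which is stored in the Weibel-Palade bodies of endothelium and in platelets and tethers platelets at injured vessels. It read 10.54, 10.72, 10.54, 10.95 and 10.80 on the banding arrays and 10.63, 10.85, 10.97 and 10.80 on the sham arrays. The groups overlapped, with banding replicates 1 and 3 below every sham array and none above them all. The difference was -0.10 ± 0.10 (SE), with a 95% interval of -0.34 to 0.15 and a limma adjusted p of 0.547. The upper bound of 0.15 lies below the lower bounds for all 6 genes that rose.

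Other genes of the Weibel-Palade bodies and of von Willebrand factor handling gave 3 higher and 0 lower of 7 measured, with a median difference of 0.64. The calls of the 3, Rab3d, Selp and Edn1, were each lost when single arrays were left out, with the highest limma adjusted p-values at 0.0563, 0.0634 and 0.111. For Rab3d, the arrays whose omission ended the call were sham replicates 1 and 2. For Selp, they were banding replicates 2, 3 and 4 and sham replicates 3 and 4. For Edn1, every omission except those of banding replicates 1 and 3 ended it. Among genes by which endothelium controls clotting, 5 of 7 were higher, 2 lower and none failed the test. Of the 2 lower, Tfpi fell by 0.66 (SE 0.08, limma adjusted p 0.000418) and F3 by 0.74 (SE 0.18, limma adjusted p 0.0131). Procr, the endothelial protein C receptor, rose by 1.63 ± 0.19, and Entpd1, which degrades ATP and ADP, rose by 1.44 ± 0.16. Plat, tissue plasminogen activator, rose by 1.67 ± 0.12 and Anxa2, its surface receptor, by 2.09 ± 0.11, but by 0.83 and 0.88 as the mean of all their probe sets. These genes are not limited to endothelium.

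Gpihbp1 on chromosome 15 (75596630 to 75598213) encodes the capillary protein that carries lipoprotein lipase across the endothelial cell and anchors it in the lumen. It read 10.75, 10.60, 10.38, 10.95 and 10.23 on the banding arrays and 10.52, 10.43, 11.30 and 10.71 on the sham arrays. Sham replicate 3 was the highest of all 9 and the other arrays were mixed. The difference was -0.16 ± 0.22 (SE), with a 95% interval of -0.67 to 0.36 and a limma adjusted p of 0.666. Without sham replicate 3 it was 0.03, so not even the sign is set by these data.

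Fatty acid handling genes of capillaries split in direction, with 4 higher, 3 lower and 6 not passing of 13, and a median difference of 0.10. Both counts lie near or under the shares over all genes above the dim level, 29.9% higher and 32.2% lower. Lpl, the lipase that Gpihbp1 binds, fell by 0.48 on the log2 scale (SE 0.09, limma adjusted p 0.00349). Lmf1, which matures lipases in the endoplasmic reticulum, fell by 0.86 (SE 0.10), and Cd36, the fatty acid translocase, fell by 0.32 (SE 0.05). Fabp5, a fatty acid binding protein of endothelium and other cells, rose by 1.17 ± 0.09. As the mean of all probe sets the differences were -0.74 for Lpl, -0.43 for Lmf1, -0.85 for Cd36 and 1.11 for Fabp5. Lpl and Cd36 are also made by cardiomyocytes, and of 12 ventricular cardiomyocyte markers 7 were lower and 1 higher, with a mean level of 14.89 to 15.15 in banding and 15.21 to 15.27 in sham.

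Whether the 10 genes changed by equal amounts was tested on the difference between a pair of genes within each array. Of 45 pairs, 27 changed unequally at an adjusted p of 0.05 in an exact two-sided permutation test over the 126 splits of the arrays, whose smallest p is 0.00794. Each gene stands here for its brightest probe set. Probe sets of 1 gene can also differ: 1 of Egfl7 fell short of its brightest by 0.54 (exact permutation adjusted p 0.0212). The part of probe-set response in the gaps between genes was not tested. Plvap exceeded each of the other 9 genes, by 0.55 over Cdh5 (exact permutation adjusted p 0.0397) to 1.58 over Gpihbp1 (0.0275). Gpihbp1 differed from 8 genes and Vwf from 7. With the brightest probe set of each gene, both fell short of every gene that rose: the gap for Vwf was 0.68 against Egfl7, 0.70 against Pecam1 and 0.97 against Cdh5, each with an exact permutation adjusted p of 0.0275. With the mean of all probe sets, Egfl7 no longer passed against Vwf (0.47, exact permutation adjusted p 0.0649) or Gpihbp1 (0.53, 0.124). Vwf and Gpihbp1 differed by 0.06 from each other (0.812).

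Pecam1, Emcn, Egfl7, Esam and Tie1 formed the middle of the order, with gaps of 0.01 to 0.10 among them and none past the threshold. Cdh5 exceeded Esam by 0.20 and Pecam1 by 0.27 (exact permutation adjusted p 0.0275 for each), but with the mean of both its probe sets, 1 of them near the dim level, these gaps were -0.09 and -0.02. On that scale 18 of 45 pairs passed. The count of 27 fell to 17 without sham replicate 1, 18 without sham replicate 2, 17 without sham replicate 4 and 0 without sham replicate 3. With 3 sham arrays there are 56 splits and the smallest p is 0.0179, so no pair can pass unless at least 17 reach it. The size of the gaps moved less: that between Plvap and Gpihbp1 ran from 1.47 to 1.70 over the omissions.

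**Figure D3:**
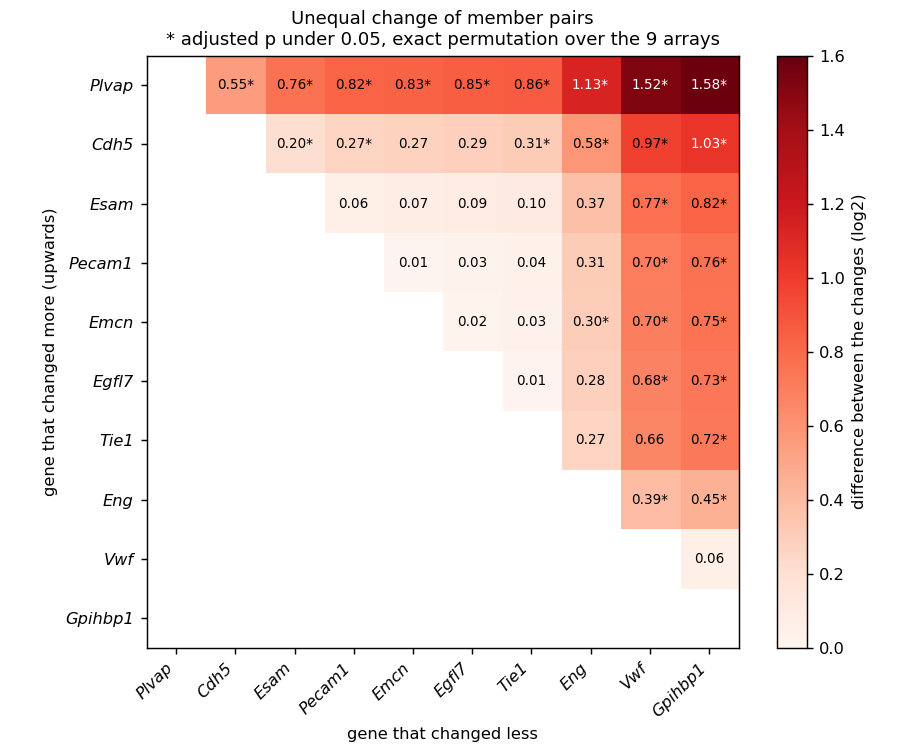
Difference between the changes of each pair of the 10 genes, in log2 units, with the gene that changed more upwards in the row and the other in the column. Stars mark the 27 pairs with an adjusted p under 0.05; the Plvap row is starred throughout, from 0.55 to 1.58.

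The arrays of a group shared a pattern across the genes. Banding replicate 5 was the lowest banding array on 7 of the 10 genes, and its median deviation from the sham mean was 0.18, against 0.56, 0.73, 0.71 and 0.71 for banding replicates 1 to 4. On Plvap it stood 1.32 above the sham mean, within the range of the others, and on Tie1 it was 0.10 below that mean. Sham replicate 3 was the highest sham array on 9 of the 10 genes, with a median deviation of 0.25, and sham replicate 2 the lowest on 7, with -0.18. Sham replicate 3 also had the lowest hepatocyte level of its group (8.51) and banding replicate 5 the highest of its own (4.67). What these arrays share was not tested. All 9 omissions of 1 array kept the 6 genes above the threshold.

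**Figure D4:**
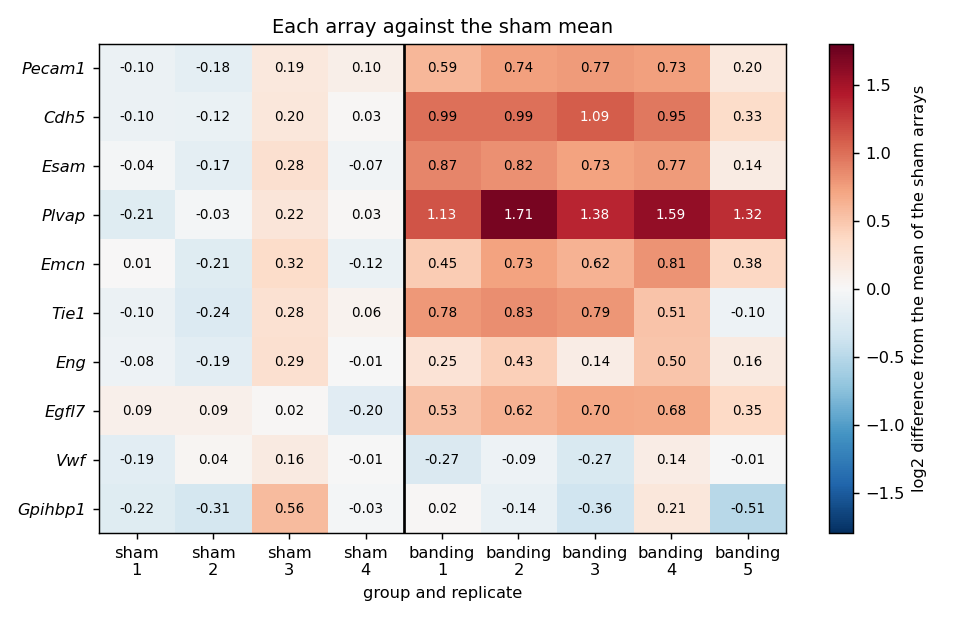
Deviation of each array from the mean of the 4 sham arrays for the 10 genes, in log2 units, with red above and blue below that mean. The column of banding replicate 5 is paler than those of the other banding arrays, with a median of 0.18, and the Plvap row is the darkest.

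Beyond the 10 genes, other lists of endothelial genes were counted. Of 22 further surface and signalling genes, 13 were higher and 0 lower by limma, with a median difference of 0.48, and 14 and 0 at an unadjusted p under 0.05. Cd93, a C-type lectin-like receptor, rose by 1.45 ± 0.14, Ecscr by 1.26 ± 0.17, the sialomucin Cd34 by 1.18 ± 0.18 and the small GTPase Rhoj by 1.08 ± 0.12. Kdr, the main VEGF receptor, rose by 0.62 ± 0.12 (limma adjusted p 0.00537). Flt1, the VEGF decoy receptor, differed by 0.47 ± 0.15 and passed at a limma adjusted p of 0.0381, but the call was lost without any 1 of banding replicates 1 to 4 or sham replicates 1 to 3 (up to 0.091), and with the mean of all probe sets it was 0.27 (0.108).

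Of 14 endothelial transcription factors, 8 were higher and 0 lower by limma, with a median difference of 0.57, and 9 and 0 at an unadjusted p under 0.05. The ETS factors rose by 1.62 ± 0.11 for Ets1, 1.15 ± 0.12 for Fli1 and 0.77 ± 0.14 for Erg. As the mean of all probe sets the rises were 1.28 for Ets1, 1.09 for Fli1 and 0.38 for Erg. Sox17 rose by 1.35 ± 0.13 and Sox18 by 1.14 ± 0.13, both regulators of vessel formation. Ets1 and Fli1 are also made by immune cells.

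Genes listed as marks of endothelium in different vessels were counted separately. Their transcripts were measured in whole tissue, and which cells made them was not tested. Of 12 arterial genes 7 were higher and 1 lower, with Unc5b at 2.44 ± 0.21, the Notch ligand Jag1 at 1.33 ± 0.16, ephrin-B2 (Efnb2) at 1.09 ± 0.14 and Notch4 at 0.78 ± 0.12. As the mean of all probe sets, Unc5b rose by 2.81, Jag1 by 0.96, Efnb2 by 0.70 and Notch4 by 0.26. Bmx, the lower arterial gene, fell by 0.76 (SE 0.23, limma adjusted p 0.0336), and 4 did not pass. With 1 array left out the limma adjusted p of Bmx reached up to 0.0872. Of 8 venous genes 6 were higher and 0 lower, with the apelin receptor Aplnr at 1.74 ± 0.19, Nrp2 at 1.11 ± 0.14 and the leukocyte ligand Vcam1 at 0.97 ± 0.19. The 6 include Selp, whose call was lost in several omissions of 1 array (limma adjusted p up to 0.0634). As the mean of its probe sets Selp rose by 0.22. Of 10 genes of angiogenic tip cells 4 were higher and 1 lower, with the chemokine receptor Cxcr4 at 2.0 ± 0.18 and the basement membrane protein Nid2 at 1.37 ± 0.13. Esm1 was under the dim level in sham and rose at least 3.41-fold, measured against that level. Pgf, the lower tip cell gene, fell by 1.22 (SE 0.21, limma adjusted p 0.00257), and 5 did not pass.

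Of the 6 listed genes of the endocardium, which lines the chamber, 0 were higher and 4 lower by limma, with a median difference of -0.65. At an unadjusted p under 0.05 the counts were 0 and 5. Nfatc1 went the other way: its brightest probe set differed by 0.23 and did not pass (limma adjusted p 0.138). As the mean of its probe sets, Nfatc1 rose by 0.50 (limma adjusted p 0.000931). Npr3, the natriuretic peptide clearance receptor, fell by 1.17 (SE 0.19), and Cytl1 fell by 1.93 (SE 0.39, limma adjusted p 0.00564). The other 2 calls did not hold over omissions of 1 array. Tmem100 (-0.68, limma adjusted p 0.0346) was lost in each omission except those of banding replicate 1 and sham replicate 4 (up to 0.0925). Tmem108 (-0.57, 0.0376) was lost in each except those of banding replicate 2 and sham replicates 1 and 2 (limma adjusted p up to 0.0957). Lymphatic genes were split, with 2 higher and 3 lower of 6, beside 29.9% higher and 32.2% lower among all genes above the dim level. Lyve1, a hyaluronan receptor also present on macrophages and liver sinusoids, fell by 1.73 (SE 0.26), and Prox1, which is also made by cardiomyocytes and hepatocytes, fell by 1.10 (SE 0.18). Pdpn, also made by fibroblasts, rose by 1.62 ± 0.11.

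Markers of other cells of the tissue moved as well. All 10 fibroblast markers were higher, with a median difference of 1.90, as were 7 of 10 markers of pericytes and smooth muscle, with 1 lower and a median of 0.59. Their mean levels were 13.48 to 13.75 against 11.28 to 11.60 for fibroblasts, and 10.22 to 10.57 against 9.19 to 9.64 for pericytes and smooth muscle. All 6 lung epithelial markers were dim in both groups. The part of these shifts in the endothelial values was not tested, and no list was tested against another.

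**Figure D5:**
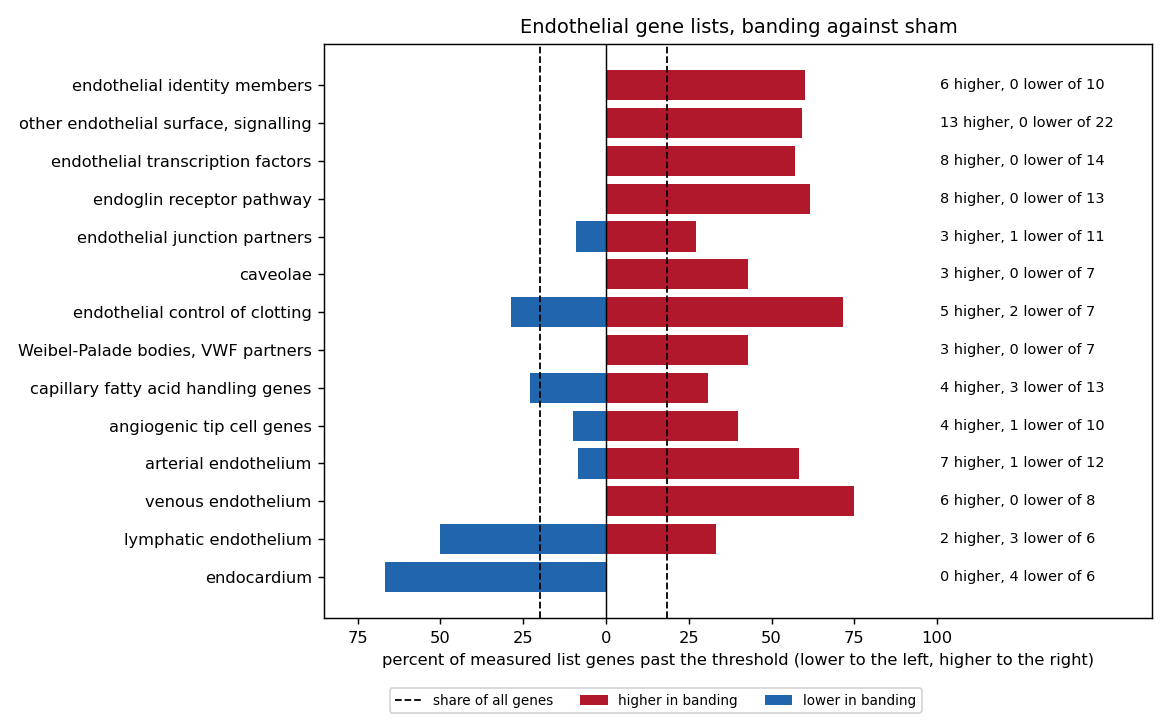
Share of the measured genes of each endothelial list that were called higher (red, to the right) or lower (blue, to the left) in banding, with the counts at the right. Dashed lines mark the shares over all 18193 genes (18.4% higher, 20.0% lower). Among genes above the dim level, where most list genes lie, the shares were 29.9% and 32.2%. The calls of the endocardial list lie wholly on the lower side.

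Other genes with a profile most like that of a given endothelial gene over the 9 arrays were found by the root mean square difference of profiles centred on their own mean, among 10738 genes above the dim level. For Cdh5 the nearest were Fam43a at 0.0898 log2 units, against a median of 0.551 over all genes compared, and Btnl9, a butyrophilin-like gene of capillary endothelium, at 0.114. For Pecam1 they were Tcim at 0.0831 and the mural cell receptor Notch3 at 0.0918.

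For Esam the nearest were Higd1b, known from pericytes, at 0.0824 and the protease gene Adamts9 at 0.0908. The Higd1b call was lost without sham replicate 2 (limma adjusted p 0.0547) and without sham replicate 4 (0.0529). For Tie1 they were Gimap6 at 0.123 and Mmrn2, an endothelial matrix protein, at 0.129, and Tie1 itself was lowest in its group on banding replicate 5. The nearest genes of the other members were Arhgef25 and Armcx1 for Plvap, Slc25a45 and Cant1 for Emcn, and Stx3 and Ube2h for Egfl7. They were Inpp5b and Zfp414 for Eng, Mtmr14 and Emp2 for Vwf, and Zbtb11os1 and 1810058I24Rik for Gpihbp1. None of these is on the endothelial lists used here. Likeness over 9 arrays from 2 groups is a description of these profiles.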

How the data were processed

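Right ventricular RNA from 5 banding and 4 sham samples was measured on one-colour Affymetrix arrays. The authors deposited log2 values per probe set, whose scale was read from their range; RMA and GCRMA are named in the submitters' processing notes, with no version, role or order. No value was normalised again. Of 45101 probe sets, 64 controls, 9160 with no gene and 932 with several were left out. Genes were named from the platform annotation given with the series. The other 34945 probe sets named 18193 genes, each represented by its probe set with the highest mean over the 9 arrays. The comparison of banding with sham used limma 3.58.1 (R 4.3.3, lmFit and eBayes, two-sided, no covariates) with Benjamini-Hochberg adjustment over all genes, at an adjusted p of 0.05 and with no filter. Differences are banding minus sham with the SE. A mean under 4.198, which is 2 above the floor, was called dim. Tested on simulated data with 50 changed genes per size among 18193, a change of 0.5 log2 units was called in 44%, of 1 in 84%, of 2 in 94% and of 3 in 98%, and 10 unchanged genes were called. Far fewer genes changed in the simulation than were called in the data, so these shares do not carry over to it. Technical measures and pairs of genes were compared by exact permutation. The members and lists were chosen with earlier results of these data known. Besides the members, the text names up to 4 genes with the smallest p per list, 9 genes whatever their p, and the 2 most alike genes of each member. Itga2b, Tmem100, Tmem108, Nfatc1, Bmx, Pgf, Tfpi, F3, Clec4g and other liver sinusoidal genes were named after their values were seen. As alternatives, results were recomputed with each gene's mean over its probe sets, leaving out cross-hybridising probe sets, with single probe sets, a filter on dim genes, quantile normalisation, centring, flooring, trend and robust fitting, a replicate block, a hepatocyte covariate and omitted arrays. Promoters and coordinates come from RefSeq (GRCm38.p6), which placed all 10 genes; the promoter table held 4. Figures were drawn with matplotlib 3.10.9 under Python 3.11.15.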

Additional observations from a re-analysis of the deposited data

Results flagged for a closer look

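In 12 of 174 groups of values screened, 1 array lay far from the rest of its group by Dixon's criterion, where chance gives about 1 in 20. Banding replicate 5 was the array apart in 9 of them. It was low on Esam (9.97) and on the brighter Cdh5 probe set in the probe-set table (9.12), on Cd93 (11.98), Sox18 (9.67) and Aplnr (12.37), and on Higd1b (7.94), Adamts9 (7.99) and Tcim (10.16), the genes most like Esam or Pecam1. Those last 3 genes were picked for profiles like these, so a low replicate 5 was part of their choice and they add nothing to the tally. It was high on Alb, which encodes the hepatocyte product albumin (8.51). Banding replicate 1 had the lowest share of values at the floor of its group (30.7%). Sham replicate 4 was low on Plat (7.60) and high on Clec4g, a gene of liver sinusoids (5.32).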

How the results depend on the processing

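The 6 genes that rose stayed called in 17 of 19 alternatives, including all 9 omissions of 1 array. The exceptions were the hepatocyte covariate and the replicate block. With the hepatocyte level as a covariate, 0 of the 10 genes passed, and 512 genes were higher and 547 lower over the whole table. The differences of Egfl7 (-0.025), Emcn (-0.042), Esam (-0.15), Tie1 (-0.17) and Eng (-0.033) then changed sign, with SEs of 0.18 to 0.66. In the endocardial list, Cytl1, Tmem100 and Tmem108 were lost with the replicate block (limma adjusted p 0.0706, 0.0801 and 0.222). Gpihbp1 ran from -0.26 to 0.033 over the omissions and changed sign without sham replicate 3. With a replicate block, Emcn (0.65, limma adjusted p 0.0595) was lost and Tie1 (0.73, 0.0374) gained, so that 6 genes passed. Same-numbered arrays did not deviate together (correlations of -0.03 to 0.04), so the numbers are not taken to pair the samples. A filter on dim genes added Tie1 and Eng, and leaving out sham replicate 4 with banding replicate 5 added Tie1 (0.75, 0.0134). The count of unequal pairs ran from 0 to 32 over the omissions. Other scalings moved the median of genes above the dim level by under 0.05. The number of arrays limits what the permutation tests can call. Self-test recovery at 0.5 log2 units was 44%, but only 50 genes per size were changed there. In the data 38.4% of genes were called, and the adjustment depends on that share. The 44% is therefore not the recovery of this comparison.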
